A study of Mus musculus with 20 samples.

Results

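*Axin2*, *Notum*, *Sp5* and *Lgr5* are genes that the canonical Wnt pathway switches on in many tissues and whose products act back on the pathway. They were followed by bulk mRNA-sequencing in 20 libraries of cultured mouse NPCs (nephron progenitor cells), which express *Six2* and form the nephrons of the kidney. The genes were chosen by name, as the rows of the normalized count table whose Ensembl identifier the deposited comparison tables pair with these symbols, which gave 4 of 31130 genes. A total of 4316 genes had a symbol. Each of the 4 members is listed in 1 comparison table only, that of CTRL NPCs in low against high CHIR, so the response to CHIR in CTRL helped to choose them and is given below as a description, with calls from which nothing is read.

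All NPCs came from E16.5 kidneys, carried Cas9-eGFP and were transfected with sgRNAs and mCherry mRNA, and mCherry+ cells were sorted for RNA. A knockout period of 48 h was followed by 24 h with CHIR at 1.25 µM (low) or 5 µM (high). CHIR inhibits GSK3, a kinase of the complex through which β-catenin is degraded. CTRL cells received sgRNAs against GFP (3 libraries in each CHIR condition), α-catenin KO cells against *Ctnna1* (2), QCKO cells against *Cdh2*, *Cdh3*, *Cdh4* and *Cdh11* together (2) and β-catenin KO cells against *Ctnnb1* (3). The cells of each culture were a pool that had received the sgRNAs and not a clone. The labels give 3 dates without naming the step they refer to. They are taken as culture dates and numbered 1 to 3 in what follows. CTRL and β-catenin KO libraries carry all of them, α-catenin KO dates 1 and 3 and QCKO dates 2 and 3.

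When a Wnt ligand binds a Frizzled receptor and its Lrp co-receptor, β-catenin escapes degradation, enters the nucleus and binds Tcf/Lef factors at target genes. β-Catenin also links cadherins to α-catenin at cell contacts. In NPCs a low level of Wnt activity goes with self-renewal, and a high level starts the mesenchymal-to-epithelial programme that forms the nephron, with loss of *Six2* and gain of *Wnt4*, *Lef1* and *Jag1*. *Axin2* encodes a scaffold of the complex that degrades β-catenin. *Notum* encodes a secreted enzyme that removes the lipid Wnt ligands need to bind their receptors. *Sp5* encodes a zinc finger transcription factor of the Sp family, and *Lgr5* a receptor for R-spondins, secreted proteins that strengthen Wnt signals at the cell surface.

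Libraries held 18124772 to 28472412 reads assigned to genes (median 21449823), and 1 read was worth 0.784 to 1.29 normalized counts depending on the library. Normalized counts are reads divided by a size factor for each library, with no correction for transcript length, so levels are compared between libraries and not between genes. In bulk samples, fewer cells expressing a gene and less RNA per cell cannot be told apart. The β-catenin KO libraries stood apart from each other by culture date, and each is therefore shown on its own. In low CHIR, *Wnt4*, an early marker of induced NPCs, was at 30.1 normalized counts on date 1, 831 on date 2 and 634 on date 3 in β-catenin KO, against 41.1, 72.6 and 72.0 in CTRL. *Six2* was at 1236, 970 and 773 normalized counts in the same 3 β-catenin KO libraries, against 1540, 1642 and 943 in CTRL. The *Ctnnb1* row could not be named from the tables used, so the level of the targeted transcript in the β-catenin KO libraries was not analysed here.

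The sgRNAs that define the β-catenin KO group are shown because the libraries of that group differ most from each other in *Axin2*, *Notum* and *Sp5*. For *Ctnnb1* the supplement to the study lists 4 sgRNAs for the 48 h knockout period, with 3 distinct sequences, and which of them went into each culture was not given in the sources used here. The exon is the one in each sgRNA's name, and the last pair of names carries 1 sequence.
Ctnnb1 sgRNA 1 (exon 2): atgagcagcgtcaaactgcg
Ctnnb1 sgRNA 3 (exon 3): agccaagcgctggacattag
Ctnnb1 sgRNA 5 (exon 3) and sgRNA 6 (exon 6): gagattatgcagtgtcgtga

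Promoter sequence was taken from RefSeq (GRCm38.p6) for the members its table held, *Axin2* and *Sp5*, and is shown because these genes, with *Notum*, moved together across the libraries described below. *Notum* and *Lgr5* are named only. Each sequence is the 250 bases before a transcription start on the plus strand, and capitals mark CTTTGA, the core of the site that Tcf/Lef factors bind, searched on both strands. For *Sp5* the window was chr2:70474673-70474922 and held 2 matches, which begin 204 and 104 bases before the start. For *Axin2* it was chr11:108920099-108920348 and held 0 matches, and this start lies 2521 bases inside the annotated gene. Of 32851 windows of this length in the table, 13.8% held at least 1 match and 1.37% at least 2. A match is a description of the letters and not of a bound site.
Sp5: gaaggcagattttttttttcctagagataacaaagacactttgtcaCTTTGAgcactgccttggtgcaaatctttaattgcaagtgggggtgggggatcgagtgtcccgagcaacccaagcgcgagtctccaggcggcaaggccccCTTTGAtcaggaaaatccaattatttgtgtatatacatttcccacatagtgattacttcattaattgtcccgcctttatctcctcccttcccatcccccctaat
Axin2: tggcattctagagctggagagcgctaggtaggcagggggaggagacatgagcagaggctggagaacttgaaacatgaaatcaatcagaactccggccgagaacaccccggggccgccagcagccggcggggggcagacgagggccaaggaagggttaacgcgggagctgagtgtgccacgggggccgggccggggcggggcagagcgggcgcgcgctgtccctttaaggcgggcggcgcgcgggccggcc

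*Axin2* (ENSMUSG00000000142, chr11:108917828-108950783, GRCm38.p6) was low in every low CHIR library except those of β-catenin KO on dates 2 and 3. In CTRL it was at 39.3, 71.5 and 61.4 normalized counts in low CHIR on dates 1, 2 and 3 and at 357, 435 and 391 in high CHIR. In α-catenin KO it was at 42.2 and 56.0 in low CHIR and at 413 and 490 in high CHIR. In QCKO it was at 74.6 and 68.5 in low CHIR and at 575 and 550 in high CHIR. The low and high CHIR libraries of these 3 groups did not overlap. In β-catenin KO, *Axin2* was at 13.97 normalized counts in low CHIR on date 1, below every CTRL library, but at 560 on date 2 and 384 on date 3, within or above the range of CTRL in high CHIR. In high CHIR the β-catenin KO libraries of dates 1, 2 and 3 held 18.5, 743 and 687 normalized counts. Date 1 was thus still below CTRL in low CHIR, while dates 2 and 3 were above every CTRL library.

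*Notum* (ENSMUSG00000042988, chr11:120653788-120661193) showed the same arrangement. CTRL libraries held 3.57, 6.50 and 5.29 normalized counts in low CHIR and, in high CHIR, 102, 312 and 125. α-Catenin KO libraries went from 1.72 and 1.70 in low CHIR to 211 and 342 in high CHIR, and QCKO libraries went from 2.60 and 1.93 in low CHIR to 392 and 228 in high CHIR. The β-catenin KO libraries in low CHIR held 1.07, 562 and 325 normalized counts and the high CHIR libraries 4.62, 407 and 578. Dates 2 and 3 of β-catenin KO were thus above the CTRL high CHIR range in both CHIR conditions, and date 1 was within or below the CTRL low CHIR range in both. The low CHIR groups of α-catenin KO and QCKO rest on 4 and 5 reads of *Notum* in all.

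*Sp5* (ENSMUSG00000075304, chr2:70474923-70477726) held few reads in low CHIR outside β-catenin KO on dates 2 and 3. No read was found in any CTRL library in low CHIR, which allows up to 3 reads per library (2.68 to 3.25 normalized counts), and CTRL in high CHIR held 56.7, 36.3 and 106 normalized counts. α-Catenin KO held 0.860 and 0.849 normalized counts in low CHIR, 1 read in each library, and 52.8 and 48.4 in high CHIR. QCKO held 3.47 and 2.89 in low CHIR, 7 reads in all, and in high CHIR 32.6 and 82.3. In β-catenin KO *Sp5* was again split by date, with 0, 83.0 and 59.3 normalized counts in low CHIR and, in high CHIR, 1.16, 68.7 and 88.5.

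*Lgr5* (ENSMUSG00000020140, chr10:115450314-115587780) went the other way and did not follow the split of the β-catenin KO cultures. CTRL libraries held 561, 250 and 359 normalized counts of *Lgr5* in low CHIR and, in high CHIR, 202, 178 and 215. α-Catenin KO went from 568 and 311 in low CHIR to 161 and 186 in high CHIR, and QCKO from 350 and 297 in low CHIR to 138 and 265 in high CHIR. β-Catenin KO held 356, 232 and 305 in low CHIR and in high CHIR 114, 97.5 and 155. The low CHIR libraries of all groups lay between 232 and 568 normalized counts, and in low CHIR dates 2 and 3 of β-catenin KO were no higher than date 1.

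**Figure D1:**
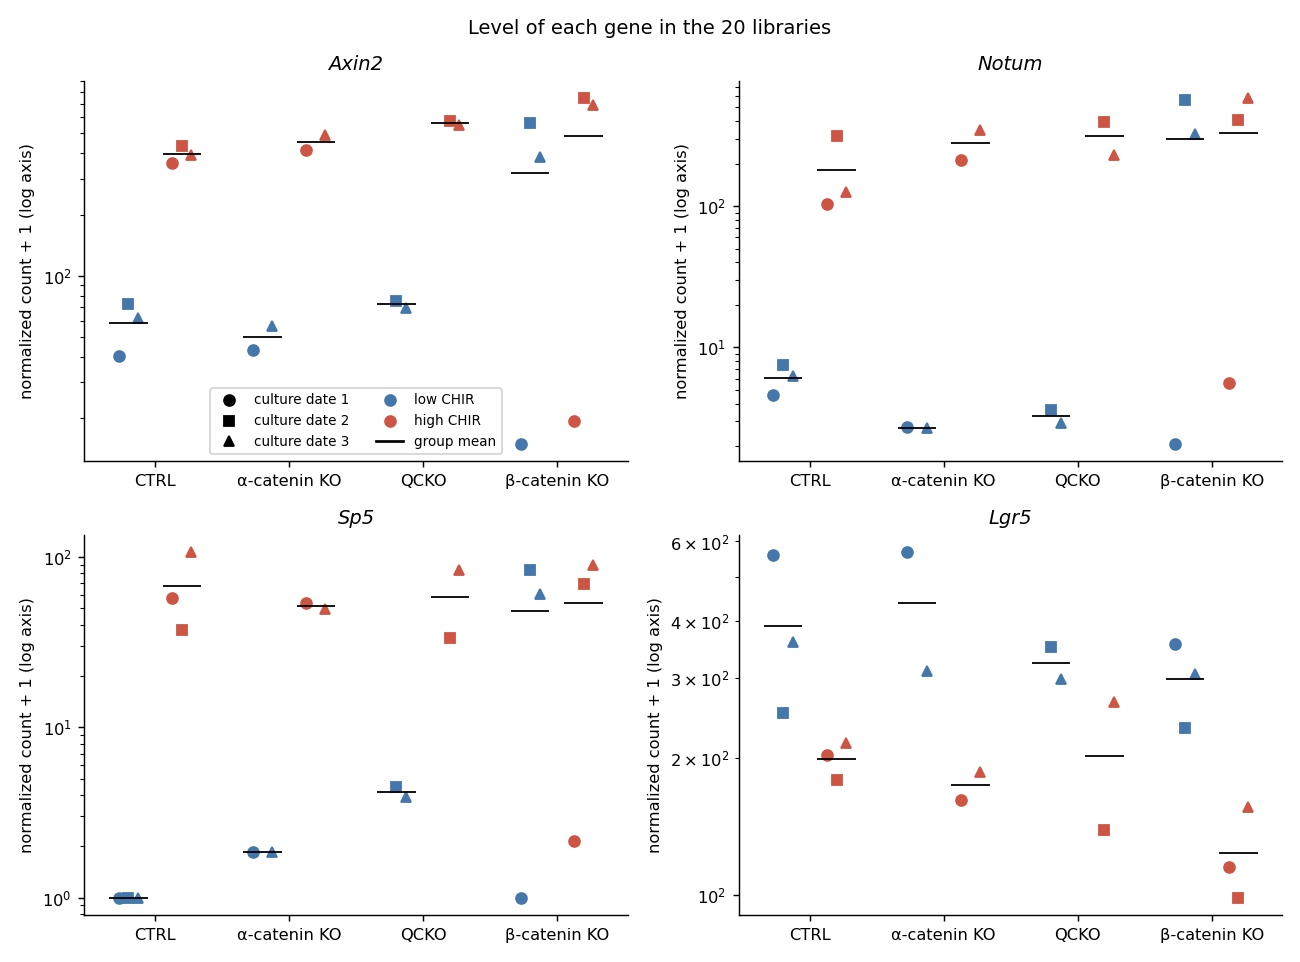
Normalized count plus 1 (log axis) of *Axin2*, *Notum*, *Sp5* and *Lgr5* in each library, by group, with the symbol giving the culture date, blue for low and red for high CHIR, and a line at the group mean. In β-catenin KO the date 1 libraries of *Axin2* (13.97 and 18.5), *Notum* (1.07 and 4.62) and *Sp5* (0 and 1.16) lie far below those of dates 2 and 3, whereas the 3 *Lgr5* libraries of each condition lie together.

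Ordered by group mean, *Axin2* ran from α-catenin KO (49.1 ± 9.80, SD, n = 2), CTRL (57.4 ± 16.5, n = 3) and QCKO (71.5 ± 4.35, n = 2) in low CHIR, through β-catenin KO in low CHIR (319 ± 279, n = 3), to CTRL (394 ± 38.9, n = 3), α-catenin KO (452 ± 54.2, n = 2), β-catenin KO (483 ± 403, n = 3) and QCKO (562 ± 17.6, n = 2) in high CHIR. Every neighbouring pair in this order overlapped in its libraries. For *Lgr5* the order was nearly turned over, from β-catenin KO in high CHIR (122 ± 29.7 normalized counts, SD, n = 3) to α-catenin KO in low CHIR (439 ± 182, n = 2), and all 4 high CHIR groups lay below all 4 low CHIR groups by mean. β-Catenin KO in high CHIR did not overlap the next group up, α-catenin KO in high CHIR (173 ± 17.4, n = 2), and the other neighbours overlapped. For *Notum* and *Sp5* the means of β-catenin KO (296 ± 281 and 47.4 ± 42.7 in low CHIR, SD, n = 3) had spreads close to the mean itself.

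The first question was how each member responded to CHIR. Values are differences of log2(normalized count + 1) between high and low CHIR, tested with limma across all genes, and calls needed both an adjusted p below 0.05 and a log2 change larger than 0.5 in size. *Sp5* and *Notum* passed the minimum mean of 10 normalized counts over the libraries fitted only through the groups in which they were high. In CTRL, the contrast that chose the genes, the log2 fold changes were 2.80 for *Axin2*, 4.74 for *Notum*, 5.94 for *Sp5* and -0.90 for *Lgr5*. The *Sp5* value depends on the pseudocount, since CTRL in low CHIR held 0 reads, and was 7.92 with a pseudocount of 0.25 and 3.71 with one of 5. Calls were made for 3 of the 4 there, against 10.7% of all 16516 genes tested, from which nothing is read.

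In α-catenin KO, *Axin2*, *Notum* and *Sp5* rose in high CHIR and *Lgr5* was not called by limma. Of all genes, 4.39% were called (2.40% higher), and the count of 3 of 4 members is not read against that share, because the change itself let *Notum* and *Sp5* into the test. *Axin2* rose by 3.19 on the log2 scale (SE 0.30, limma adjusted p = 5.2e-05). For *Notum* and *Sp5* the p is taken from the limma fit with no minimum mean, in which *Notum* rose by 6.64 (SE 0.55, adjusted p = 4.8e-06) and *Sp5* by 4.80 (SE 0.63, adjusted p = 3.99e-04). In reads, *Notum* was 166-fold higher in high CHIR (95% exact counting interval 64.6 to 613) and *Sp5* 58.9-fold higher (15.8 to 494), intervals that cover counting error only and are wide because low CHIR held 4 and 2 reads. *Lgr5* had a log2 fold change of -1.28 (SE 0.40, limma adjusted p = 0.116). It was called lower when culture date was a block in the fit (-1.28, limma adjusted p = 0.0459) and by DESeq2 (-1.35, adjusted p = 0.0275), and not by edgeR.

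In QCKO *Axin2*, *Notum* and *Sp5* also rose, with 4.93% of all genes called (2.62% higher) and the same limit on the count of 3 of 4 members. *Axin2* rose by 2.96 on the log2 scale (SE 0.30, limma adjusted p = 7.0e-05). With no minimum mean, *Notum* rose by 6.53 (SE 0.55, limma adjusted p = 4.3e-06) and *Sp5* by 3.66 (SE 0.63, adjusted p = 0.0033). In reads, *Notum* was 131-fold higher in high CHIR (95% exact counting interval 55.9 to 406) and *Sp5* 19.0-fold higher (8.91 to 48.2). In CTRL the corresponding value for *Notum* was 34.9-fold (21.0 to 62.8), and *Sp5* was at least 21.8-fold higher in high CHIR, set against the limit that 0 reads allow per library. *Lgr5* in QCKO had a log2 fold change of -0.75 (SE 0.40, limma adjusted p = 0.447). The calls of *Axin2*, *Notum* and *Sp5* in α-catenin KO and QCKO were lost when the β-catenin KO libraries were added to the fit, since all groups then share 1 estimate of the spread.

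In β-catenin KO, 0 of 4 members were called by limma, where 0.0180% of all 16691 genes were. At an unadjusted p under 0.05 the count was 1 (*Lgr5*), edgeR called 0 and DESeq2 called 1 (*Lgr5*). The log2 fold changes were 0.54 for *Axin2* (SE 1.21, limma adjusted p = 0.999), 0.60 for *Notum* (SE 1.71), 0.47 for *Sp5* (SE 1.40) and -1.28 for *Lgr5* (SE 0.32, adjusted p = 0.348). Within dates, *Axin2* differed between high and low CHIR by 0.38, 0.41 and 0.84 on the log2 scale on dates 1, 2 and 3, against 3.15, 2.59 and 2.65 in CTRL. *Notum* differed by 1.44, -0.46 and 0.83 and *Sp5* by 1.11, -0.27 and 0.57. The date 1 values rest on 1 read of *Notum* in low and 4 in high CHIR, and on 0 and 1 read of *Sp5*. Each of these same-date differences in *Axin2*, *Notum* and *Sp5* was smaller than every one in CTRL. That is a description, since the CTRL response helped to choose the genes. On dates 2 and 3 of β-catenin KO these genes were already high in low CHIR, with *Axin2* at 560 and 384 normalized counts. *Lgr5* differed by -1.63, -1.24 and -0.97, against -1.47, -0.49 and -0.74 in CTRL. The SEs above hold the spread between dates, since that fit has no block. When the fit held only the 2 groups compared and blocked on culture date, which leaves 2 residual degrees of freedom, *Lgr5* was called in β-catenin KO (limma adjusted p = 0.0226), as it was with DESeq2 (log2 fold change -1.28, adjusted p = 0.0431). In the blocked fit *Axin2* (limma adjusted p = 0.304), *Notum* (0.563) and *Sp5* (0.722) were not called.

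Over the 7 pairs of same-date low and high CHIR libraries outside CTRL, the directions are given as a description with no test. *Lgr5* was lower in high CHIR in 7 of 7 pairs (mean log2 difference -1.13, range -1.81 to -0.17), and *Axin2* was higher in 7 of 7 (mean 1.99, range 0.38 to 3.26). *Notum* (mean 4.02, range -0.46 to 6.99) and *Sp5* (mean 2.62, range -0.27 to 4.85) were higher in 6 of 7 pairs. The means pool 3 knockouts whose responses differ in size. *Lgr5* was also lower in high CHIR in the 3 CTRL pairs, which helped to choose the genes and so add nothing to that count. How many of all genes kept the same direction over the pairs was not computed. Pairs of the same date were not shown to be independent cultures.

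**Figure D2:**
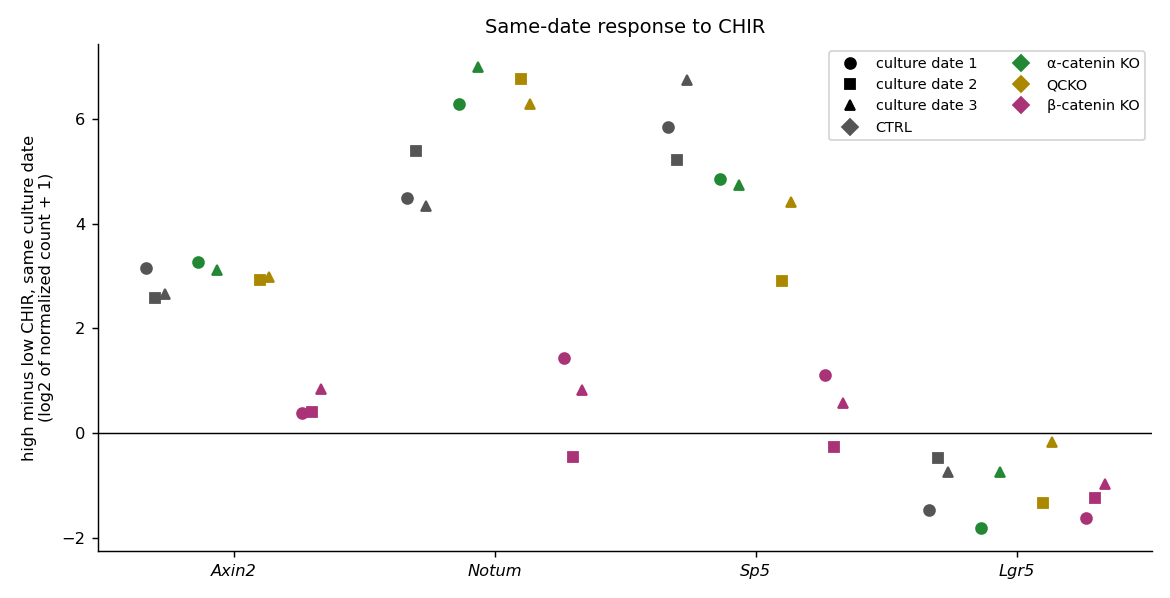
Difference between high and low CHIR libraries of the same culture date, as log2 of normalized count plus 1, for each gene, with colour giving the knockout and the symbol the date. The β-catenin KO points of *Axin2* (0.38 to 0.84), *Notum* (-0.46 to 1.44) and *Sp5* (-0.27 to 1.11) lie near 0 and below all other groups. All 10 *Lgr5* points lie below 0, among them the CTRL points, whose contrast helped to choose the genes.

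The second question was how each knockout differed from CTRL at the same CHIR concentration. These comparisons use the same CTRL libraries as the contrast that chose the genes. For α-catenin KO and QCKO, limma called 0 of 4 members in low CHIR and 0 of 4 in high CHIR, and so did edgeR and DESeq2. Of all genes tested, 0% were called for α-catenin KO in low CHIR, 0% in high CHIR, 0.00605% for QCKO in low CHIR and 0% in high CHIR. At an unadjusted p under 0.05 the counts were 1 for α-catenin KO in low CHIR (*Notum*), 1 for QCKO in low CHIR (*Sp5*) and 0 for both in high CHIR. In low CHIR *Axin2* differed from CTRL by -0.19 (SE 0.27) in α-catenin KO and by 0.35 (SE 0.27) in QCKO on the log2 scale, and in high CHIR by 0.20 (SE 0.27) and 0.52 (SE 0.27). *Notum* was below CTRL of the same date in all 4 α-catenin KO and QCKO libraries in low CHIR, at 0.321 to 0.482 times its level, and above it in all 4 in high CHIR, at 1.26 to 2.73 times. The limma log2 differences were -1.15 (SE 0.49) and -0.88 (SE 0.49) in low CHIR and 0.76 (SE 0.49) and 0.91 (SE 0.49) in high CHIR. In low CHIR these ratios rest on 2 or 3 reads of *Notum* per knockout library, against 4 to 6 per CTRL library. The CTRL libraries of date 3 serve both knockouts, so the 4 ratios are not independent. How many of all genes show such a direction in all 4 was not computed.

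For β-catenin KO in low CHIR, limma called 0 of 4 members, where 0.0659% of all genes were called. At an unadjusted p under 0.05 the count was 1 (*Sp5*), edgeR called 0 and DESeq2 called 2, with log2 fold changes of 5.86 for *Notum* (adjusted p = 0.0030) and 8.00 for *Sp5* (adjusted p = 0.0020). The limma log2 differences from CTRL were 1.38 for *Axin2* (SE 1.21, adjusted p = 0.949), 3.60 for *Notum* (SE 1.71, adjusted p = 0.727), 4.10 for *Sp5* (SE 1.40, adjusted p = 0.535) and -0.33 for *Lgr5* (SE 0.32, adjusted p = 0.952). Against CTRL of the same date, *Axin2* was at 0.356, 7.83 and 6.25 times the CTRL level on dates 1, 2 and 3, and *Notum* at 0.301, 86.4 and 61.4 times. The date 1 value of *Notum* rests on 1 read in β-catenin KO, and the CTRL libraries held 4 to 6 reads each. *Lgr5* was at 0.635, 0.927 and 0.850 times. Without the β-catenin KO low CHIR library of date 1, *Sp5* was called higher (log2 difference 6.15, limma adjusted p = 0.0230), a gene that was tested only because other groups were high.

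For β-catenin KO in high CHIR, limma called 0 of 4 members where 10.5% of all genes were called (7.67% higher, 2.86% lower). At an unadjusted p under 0.05 the count was 1 (*Lgr5*), and edgeR and DESeq2 called 0. The log2 differences from CTRL were -0.87 for *Axin2* (SE 1.21, limma adjusted p = 0.666), -0.54 for *Notum* (SE 1.71, adjusted p = 0.865), -1.37 for *Sp5* (SE 1.40, adjusted p = 0.548) and -0.71 for *Lgr5* (SE 0.32, adjusted p = 0.156). The means hide opposite dates. *Axin2* was at 0.0517 times the same-date CTRL level on date 1 and at 1.71 and 1.76 times on dates 2 and 3, and *Notum* at 0.0453, 1.30 and 4.61 times. *Sp5* was at 0.0204 times on date 1, where it rests on 1 read, and at 1.89 and 0.836 times on dates 2 and 3. *Lgr5* was lower than CTRL on all dates, at 0.567, 0.547 and 0.723 times. Leaving out the β-catenin KO high CHIR library of date 1 turned *Axin2*, *Notum* and *Sp5* positive (0.86, 1.60 and 0.37), and none of them was called.

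**Figure D3:**
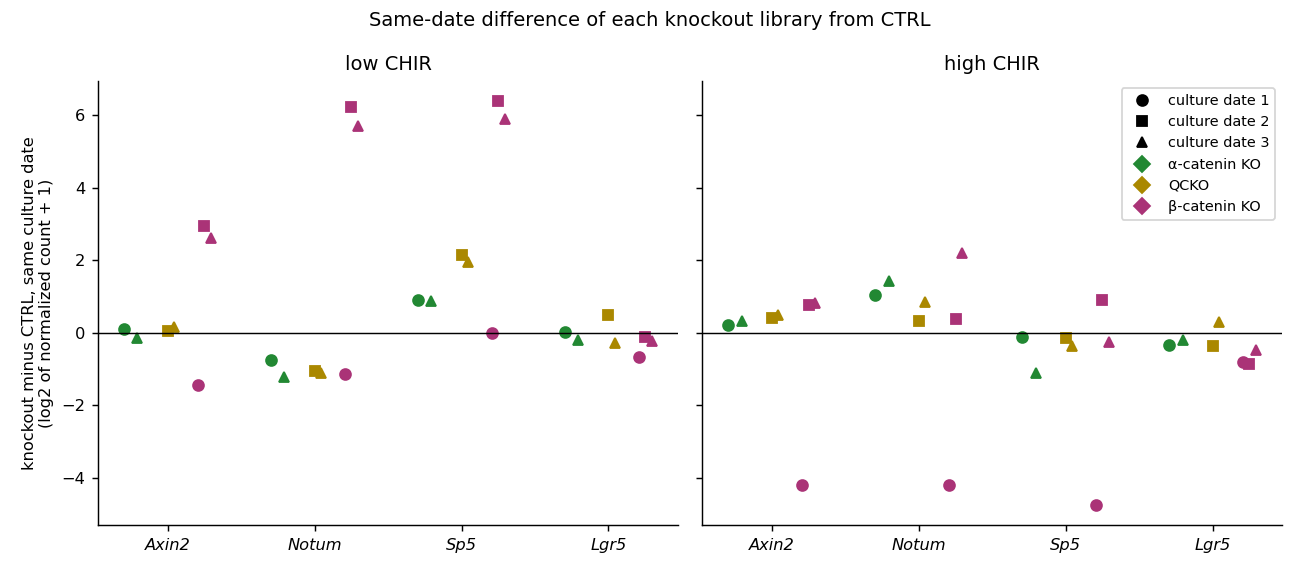
Difference of each knockout library from the CTRL library of the same culture date, as log2 of normalized count plus 1, in low (left) and high CHIR (right), with colour giving the knockout and the symbol the date. In β-catenin KO, *Axin2*, *Notum* and *Sp5* lie near or below CTRL on date 1 and far above it on dates 2 and 3 in low CHIR, and at -4.74 to -4.20 on date 1 in high CHIR, while the α-catenin KO and QCKO libraries of all 4 genes stay between -1.22 and 2.16.

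The response to CHIR was then compared between each knockout and CTRL as an interaction. It subtracts the CTRL response, which chose the genes, so the values are descriptions and the counts of calls support nothing. For β-catenin KO minus CTRL, limma called 0 of 4 members, where 0.671% of all genes were called. At an unadjusted p under 0.05 the count was 1 (*Sp5*), edgeR called 0 and DESeq2 called 1 (*Sp5*, log2 difference -8.35). The limma differences were -2.26 for *Axin2* (SE 1.72), -4.14 for *Notum* (SE 2.42), -5.47 for *Sp5* (SE 1.98) and -0.38 for *Lgr5* (SE 0.45). Without the β-catenin KO low CHIR library of date 1 the *Sp5* difference was -7.52 and limma counted it as called. For α-catenin KO and QCKO minus CTRL, limma, edgeR and DESeq2 each called 0 of 4 members, and 0% and 0% of all genes were called. At an unadjusted p under 0.05 the counts were 1 (*Notum*, 1.90, SE 0.69) for α-catenin KO and 2 (*Notum*, 1.80, SE 0.69, and *Sp5*, -2.27, SE 0.75) for QCKO.

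To set each β-catenin KO library against its own date, its place between the CTRL low CHIR library (0%) and the CTRL high CHIR library (100%) of that date was computed on the log2 scale. The CTRL libraries are those of the contrast that chose the genes, and the values are descriptions with no test. In low CHIR, dates 2 and 3 of β-catenin KO were at 114% and 99.0% for *Axin2*, 116% and 132% for *Notum* and 122% and 87.7% for *Sp5*, and date 1 was at -45.3%, -25.3% and 0%. In high CHIR, dates 2 and 3 were at 130% and 131% for *Axin2*, 107% and 151% for *Notum* and 117% and 96.2% for *Sp5*, and date 1 at -33.2%, 6.64% and 18.9%. The date 1 places of *Notum* and *Sp5* rest on 0 to 4 reads per β-catenin KO library. Over the 799 genes called higher in high CHIR in CTRL, the median place in low CHIR was -8.96% on date 1, 21.4% on date 2 and 23.2% on date 3, with upper quartiles of 23.0%, 50.3% and 49.9%. In high CHIR it was 9.34%, 57.1% and 47.3%. On dates 2 and 3 the 3 members thus lay above the upper quartile of these genes in low CHIR. Over the 961 genes called lower in CTRL, the median place in low CHIR was -20.8%, 5.91% and 6.35%, and in high CHIR 9.16%, 23.1% and 18.7%.

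The 9 other pathway genes called higher in CTRL ranged on dates 2 and 3 in low CHIR from below these medians to above the members. *Fzd10*, a Wnt receptor, was at 172% and 150% on dates 2 and 3 of β-catenin KO in low CHIR, and *Msx1*, a homeobox factor, at 124% and 106%. In normalized counts, *Fzd10* was at 3.22, 327 and 195 in these low CHIR cultures, against 4.46, 1.08 and 2.12 in CTRL in low CHIR and 20.4, 38.5 and 47.8 in CTRL in high CHIR. *Lef1*, the Tcf/Lef factor that rises on induction, was at 85.8% and 67.1%, *Fzd6* at 65.1% and 51.3% and *Wnt4* at 60.1% and 50.3%. *Tcf7*, another Tcf/Lef factor, was at 68.1% and 53.2%, *Msx2*, a homeobox factor related to *Msx1*, at 55.3% and 58.7% and *Prickle1*, of the planar polarity branch of Wnt signalling, at 61.0% and 26.8%. *Shisa2*, which retains Wnt and Fgf receptors inside the cell, was at 3.87% and -1.73%. On date 1 in low CHIR the 9 genes lay between -69.5% (*Msx2*) and 36.4% (*Prickle1*). *Six2*, which falls in CTRL, had covered 16.3% and 8.26% of that fall on dates 2 and 3 in low CHIR. In high CHIR the same dates had covered 43.0% and 29.1%.

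**Figure D4:**
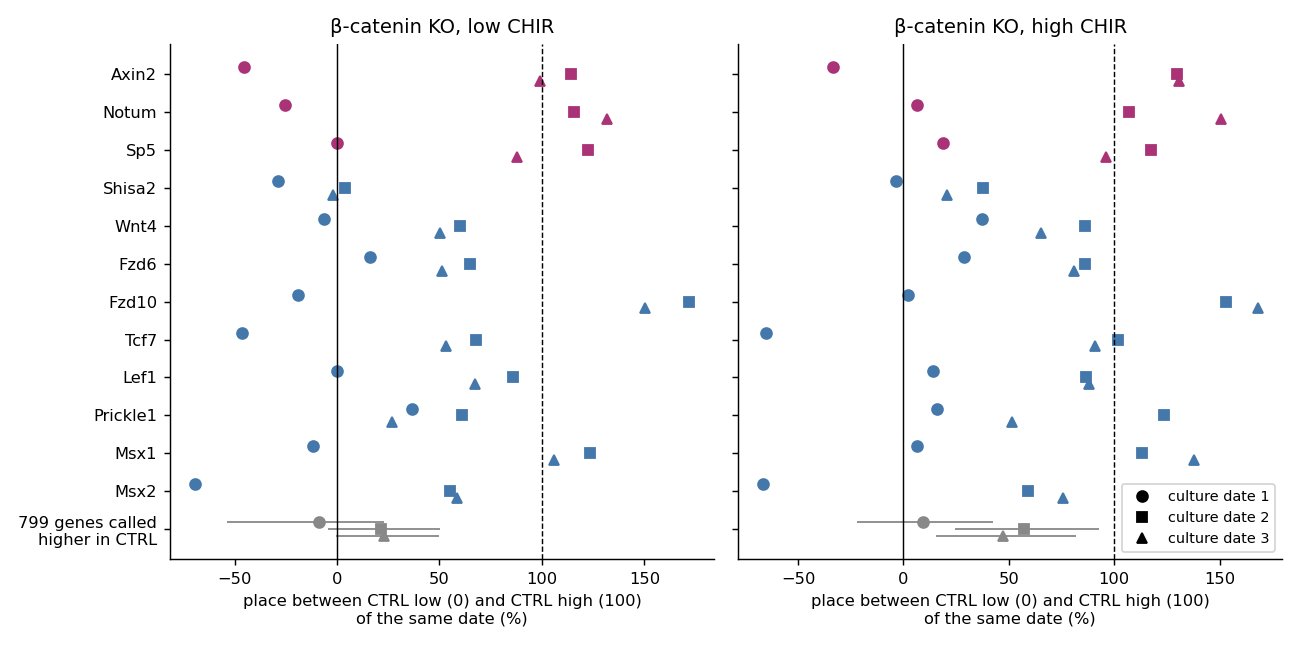
Place of each β-catenin KO library between the CTRL low CHIR (0%) and CTRL high CHIR (100%, dashed) libraries of its culture date, on the log2 scale, for *Axin2*, *Notum* and *Sp5* (purple), the other pathway genes called higher in CTRL (blue) and the median with quartiles of all 799 genes called higher in CTRL (grey). On dates 2 and 3 in low CHIR the 3 members lie between 87.7% and 132%, against grey medians of 21.4% and 23.2%.

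Of a list of 115 genes of the Wnt pathway in 6 roles, 42 had an identifier and 40 were tested. Identifiers exist for genes in the deposited comparisons, so these genes were already selected for a difference. In CTRL 12 were higher and 17 lower in high CHIR (median log2 fold change -0.84, against -0.01 over all genes), where 10.7% of all genes were called. By limma over the 14 libraries without β-catenin KO, 12 were higher and 7 lower in α-catenin KO (4.39% of all genes called), and 14 were higher and 7 lower in QCKO (4.93%). In the fit of all 20 libraries, CTRL had 7 higher and 18 lower, QCKO 6 and 6, α-catenin KO 4 and 7, and β-catenin KO 0 and 0, where 0.0180% of all genes were called. For β-catenin KO 8 of the 40 had an unadjusted p under 0.05, edgeR called 0 and DESeq2 called 2 lower (*Lgr5* and *Frat1*). The members are part of these counts, and since the list was selected, they are not read against the shares of all genes.

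Among ligands, *Wnt4* was higher in high CHIR in CTRL (log2 fold change 6.33) and *Rspo1*, an R-spondin of the kind that Lgr5 binds, was lower (-3.49). Among feedback inhibitors and antagonists, *Shisa2* was higher (2.58) beside *Axin2* and *Notum*, and the secreted antagonists *Dkk2* (-3.10) and *Dkk3* (-1.87) were lower. Among 13 receptors and co-receptors, 2 were higher, *Fzd6* (4.11) and *Fzd10* (3.39), and 6 lower, among them *Fzd4* (-3.30) and *Ror2* (-1.46). In the cytoplasm, *Frat1* (-2.82) and *Frat2* (-2.32), whose products bind GSK3, were lower. Among nuclear factors, *Lef1* (4.09) and *Tcf7* (1.5) were higher with *Sp5*, and *Tcf7l1* (-1.66), a factor known mainly as a repressor, and *Bcl9l* (-1.56), a β-catenin co-factor, were lower. Among other genes widely used as Wnt targets, *Msx1* (4.29), *Msx2* (3.23) and *Prickle1* (2.0) were higher, and *Myc* (-2.39) and *Sox9* (-1.94) were among the 3 lower.

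In high CHIR, 13 of the 40 genes were higher and 2 lower in β-catenin KO than in CTRL by limma, beside 7.67% and 2.86% of all genes. *Dkk2* was higher by 5.57 on the log2 scale, *Rspo1* by 3.29, *Fzd4* by 2.96, *Dkk3* by 2.46, *Cd44* by 1.94, *Ror1* by 1.92 and *Myc* by 1.73, whereas *Shisa2* (-2.15) and *Id2* (-1.22), an inhibitor of DNA binding, were lower. *Axin2*, *Notum*, *Sp5*, *Lef1* (-1.52), *Fzd6* (-1.64) and *Wnt4* (-2.45) were not called, with SEs of 1.21 to 1.71 for the first 3. In low CHIR limma called 0 of the 40 genes between β-catenin KO and CTRL, where 0.0659% of all genes were called. Of the 40, 8 had an unadjusted p under 0.05, edgeR called 0, and DESeq2 called 7 higher and 1 lower.

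**Figure D5:**
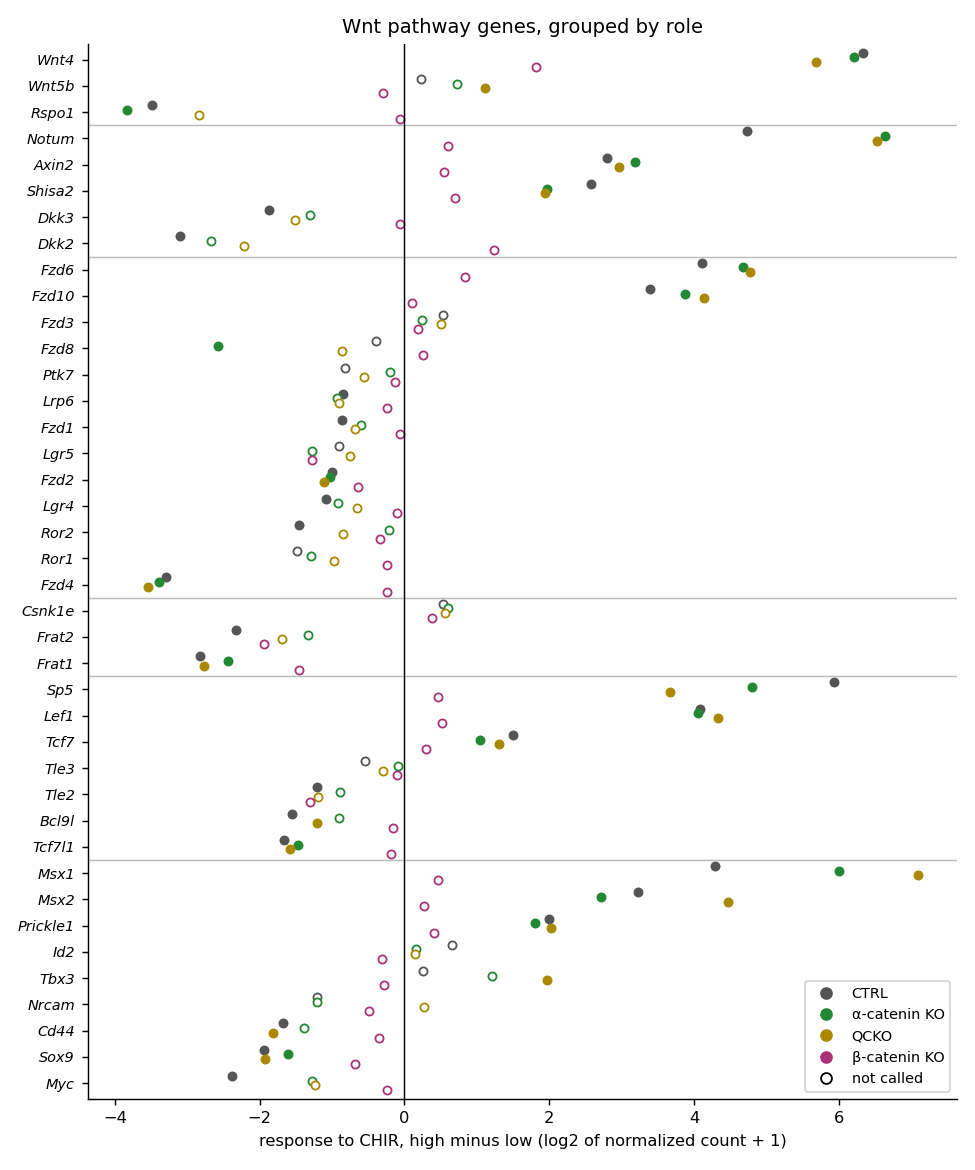
Response to CHIR (high minus low, log2 of normalized count plus 1) of the 40 Wnt pathway genes tested, grouped by role, with colour giving the knockout and open circles for values not called by limma. CTRL, α-catenin KO and QCKO lie at 2.80, 3.19 and 2.96 for *Axin2*, 4.74, 6.64 and 6.53 for *Notum*, 5.94, 4.80 and 3.66 for *Sp5* and -0.90, -1.28 and -0.75 for *Lgr5*. In β-catenin KO *Axin2* is at 0.54, and the values of that group run from -1.93 (*Frat2*) to 1.82 (*Wnt4*) with none called by limma.

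Markers of the cell types that a culture could hold are given beside these results. Of 10 nephron progenitor markers 7 had an identifier, of 9 markers of induced NPCs 6, of 9 ureteric epithelium markers 5, of 9 stroma markers 1 (*Meis1*), of 6 endothelium markers 1 (*Tek*) and of 6 leukocyte markers 0. Summed nephron progenitor markers were in CTRL at 15619 to 21896 normalized counts in low and 1478 to 2262 in high CHIR, and in β-catenin KO at 24209, 13833 and 14743 on dates 1, 2 and 3 in low CHIR and at 15272, 7581 and 9734 in high CHIR. Identifiers exist for genes in the deposited comparisons, so these markers were already selected for a difference. Their change with CHIR is a description from which nothing is read. Summed markers of induced NPCs were in CTRL at 301 to 1101 in low and 9315 to 26626 in high CHIR, and in β-catenin KO at 315, 2421 and 3251 in low CHIR and, in high CHIR, 1479, 6383 and 8048. They followed the date split of *Axin2*, *Notum* and *Sp5*. Ureteric epithelium markers were at 445, 790 and 732 in β-catenin KO in low CHIR, within the range of 286 to 1008 in CTRL, *Meis1* at 1728, 1671 and 2121, against 2143 to 2961 in CTRL, and *Tek* at 4.80 or less, against up to 3.25 in CTRL.

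The markers of other cell types, selected in the same way, also moved with CHIR. *Tek*, a receptor of endothelial cells, was at 0 to 7.64 normalized counts in low CHIR in CTRL, α-catenin KO and QCKO and in high CHIR at 89.7 to 177 in CTRL, 92.7 to 383 in α-catenin KO and 221 to 357 in QCKO. In β-catenin KO in high CHIR it was at 4.62, 85.3 and 46.8 on dates 1, 2 and 3. Summed ureteric epithelium markers were in high CHIR at 857 to 1028 in CTRL, 1212 to 2012 in α-catenin KO, 1710 to 1867 in QCKO and 552 to 1048 in β-catenin KO, against 394 to 915 in α-catenin KO and 528 to 718 in QCKO in low CHIR. *Meis1* was lower in high CHIR, at 750 to 1090 in CTRL, 949 to 1094 in α-catenin KO, 890 to 1091 in QCKO and 537 to 921 in β-catenin KO, against 1887 to 2165 in α-catenin KO and 1740 to 3220 in QCKO in low CHIR. The part of these cell types in the levels of the 4 genes was not tested.

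The genes whose profiles lay nearest were found among the genes with a symbol and a mean of at least 100 normalized counts over the 20 libraries, by the root mean square difference of log2 values after each gene's mean was subtracted. For *Notum* the nearest was *Msx1* (0.67, against a median of 3.16 over 2868 genes), then *Sptlc3* (0.92) and *Cthrc1* (1.30). For *Sp5* they were *Arhgef3* (0.91), *Lef1* (1.01) and *Bmp7* (1.04), and for *Axin2* they were *Ism1* (0.70), *Tagln3* (0.70) and *Trim16* (0.74, against a median of 1.85). For *Lgr5* they were *Lzts1* (0.35), *Uhrf2* (0.40) and *Septin6* (0.41, against a median of 0.83). Among the members themselves, *Axin2*, *Notum* and *Sp5* lay 1.13 to 1.54 from each other and 2.26 to 3.63 from *Lgr5*. The 20 libraries share groups and dates, and these distances carry no test.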

How the data were processed

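RNA from mCherry+ NPCs was sequenced as paired-end reads, and the submitters' processing notes name STAR, featureCounts, Salmon, DESeq2 and the builds GRCm38, mm10 and GRCh38, with no roles. The authors deposited signal values for 31130 genes that are read counts divided by 1 size factor per library. In all 20 libraries 100% of values were whole multiples of 1 read within 0.01, so reads were recovered. In 2 libraries the size factor is too near 1 for that check to be telling. Gene symbols came from the 7 deposited comparison tables, which also hold the authors' fold changes and p-values, not used here. Their Entrez identifiers gave RefSeq positions.

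Log2(normalized count + 1) was fitted with limma 3.58.1 (R 4.3.3, trend, 1 mean per group, mean of at least 10) over 14 libraries without β-catenin KO, or over all 20 for β-catenin KO, with Benjamini-Hochberg adjustment. Fits were tested on simulated data. The alternatives were no minimum mean, one of 100, a pseudocount of 0.25 or 5, quantile normalization, other libraries in the fit, a log2 fold change over 1, edgeR 4.0.16, DESeq2 1.42.0, each library left out, and the culture date as a block. A block with only the groups compared, and counts of pathway genes with all libraries, edgeR and DESeq2, were added after seeing the data. Dates in the labels, taken as culture dates, pair the libraries. Deviations of same-date low and high CHIR libraries from their group means correlated at 0.0474 to 0.721 across genes.

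The members and gene lists were chosen with earlier results of these data known. Named pathway genes were those called in CTRL or between β-catenin KO and CTRL in high CHIR, at most 5 per role in each comparison by absolute log2 fold change. Whether replicates came from separate litters was not given in the sources used here, so p-values measure the spread between these libraries.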

Additional observations from a re-analysis of the deposited data

How the results depend on the processing

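Depth limits *Sp5* and *Notum* in low CHIR, where outside β-catenin KO the groups hold 0 to 15 reads in all. It also limits them on date 1 of β-catenin KO, where each library of either CHIR condition holds 0 to 4 reads of them. The count of members called for the response to CHIR dropped from 3 to 1 in CTRL and to 0 in α-catenin KO and QCKO with all 20 libraries in the fit. *Lgr5* was added, from 0 to 1 member in β-catenin KO and from 3 to 4 in α-catenin KO, both with DESeq2 and in the fit of only the groups compared that blocked on culture date, and from 3 to 4 in CTRL with DESeq2. In α-catenin KO that blocked fit holds 4 libraries and leaves 1 residual degree of freedom, so its p rests on the spread pooled over genes and nothing is read from its call. Blocking on culture date over the libraries of the report changed 1 call, that of *Lgr5* in α-catenin KO (-1.28). Between β-catenin KO and CTRL in low CHIR the count went to 2 with DESeq2 and ran from 0 to 1 with 1 library left out, and for the response of β-catenin KO minus CTRL it went to 1 with DESeq2 and ran from 0 to 1.

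Directions turned as follows, with no call in either direction. Between β-catenin KO and CTRL in high CHIR, *Axin2* was at 0.29 with edgeR and 0.27 with DESeq2, and *Notum* at 0.88 and 0.84. Between QCKO and CTRL in high CHIR, *Lgr5* was at 0.11 with the culture date as a block, 0.0043 with edgeR and 0.012 with DESeq2. With the block and only the groups compared, *Lgr5* in low CHIR was at -0.094 in α-catenin KO and 0.11 in QCKO against CTRL. The cause was not tested.

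The pseudocount changed no call and no sign of a member, but moved values of groups that hold libraries of few reads. With 0.25 and with 5, *Sp5* was at 5.42 and 2.61 in low CHIR between β-catenin KO and CTRL, 2.14 and 0.23 for α-catenin KO, 3.77 and 0.71 for QCKO, and for the response minus that of CTRL at -6.99 and -3.52 in β-catenin KO, -2.39 and -0.47 in α-catenin KO and -3.99 and -0.91 in QCKO. *Notum* in low CHIR was at -1.42 and -0.58 between α-catenin KO and CTRL and at -1.07 and -0.47 between QCKO and CTRL. The response of β-catenin KO was at 0.93 and 0.20 for *Sp5* and at 0.75 and 0.34 for *Notum*. Against CTRL in high CHIR, β-catenin KO was at -1.56 and -0.91 for *Sp5* and at -0.60 and -0.31 for *Notum*.

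With 1 library left out, the response of β-catenin KO ran from -1.11 to 2.27 for *Axin2*, -1.96 to 2.74 for *Notum* and -1.58 to 2.20 for *Sp5*, negative without the low CHIR library of date 1 or the high CHIR library of date 2 or of date 3. Against CTRL in high CHIR the ranges were -1.77 to 0.86, -1.74 to 1.60 and -2.32 to 0.37, positive without the high CHIR library of date 1. In α-catenin KO against CTRL they were -0.44 to 0.0083 for *Axin2* and -0.25 to 0.62 for *Lgr5* in low CHIR and -0.61 to 0.15 for *Sp5* in high CHIR. The sign turned without the α-catenin KO library of date 1 for the first pair, for *Lgr5* also without CTRL of date 2, and for *Sp5* without CTRL of date 3. In QCKO against CTRL they were -0.47 to 0.11 for *Lgr5* in low CHIR, and -0.87 to 0.44 for *Sp5* and -0.52 to 0.42 for *Lgr5* in high CHIR. The sign turned without CTRL of date 1 in low CHIR, and without CTRL of date 3 or QCKO of date 2 in high CHIR. For the responses minus that of CTRL, *Lgr5* ran from -0.81 to 0.056 in α-catenin KO and from -0.33 to 0.61 in QCKO, and *Axin2* in QCKO from -0.017 to 0.41, turned by the low CHIR library of α-catenin KO date 1, of CTRL date 1 (*Lgr5*, also by QCKO date 3 in high CHIR) and of CTRL date 2 (*Axin2*). Each other member value kept its sign under every alternative run.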
